A study of Mus musculus with 6 samples.

Results

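ATF4 is the transcription factor of the integrated stress response, and the genes described here are Atf4, 4 of its textbook target genes (Ddit3, Trib3, Asns and Chac1) and 5 enzymes of serine and mitochondrial folate metabolism (Phgdh, Psat1, Psph, Shmt2 and Mthfd2). They were picked by symbol from a count table of mouse bone marrow RNA, and all 10 were found among its 13007 rows; none was absent. In the AEL libraries (acute erythroid leukemia), Asns, Psat1 and Shmt2 were higher than in sorted marrow cells labeled WT (NC). Trib3 was also called higher, but it reached 1 CPM in AEL libraries only, and the call ended without any single NC library. Atf4 itself was not called higher, and the AEL libraries differed widely among themselves.

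The 3 AEL libraries came from GFP-positive leukemic marrow cells carrying introduced ERG, an ETS family transcription factor, with the genotype label Trp53-/-ERG-expressing. The 3 NC libraries came from WT marrow stained and sorted with antibodies to CD71 (transferrin receptor) and Ter119 (red cell lineage). All mice were C57BL/6; the labels give no age, no promoter for ERG, and no word on whether a library was 1 animal, 1 clone or a pool. Every one of the 6 libraries carries a source label with mutated SETBP1 and ASXL1; for NC this conflicts with the genotype label WT, and which is right is not known. The labels call the libraries biological replicates but name no animal, and p-values therefore reflect only sample-to-sample spread, which may be technical. The groups were sorted on different markers, so the leukemia and the sort cannot be told apart in any difference below.

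When eIF2, a translation initiation factor, is phosphorylated by any of its kinases, most translation slows while the Atf4 mRNA is translated more. ATF4 protein then activates genes for amino acid synthesis, amino acid uptake and tRNA charging, and under lasting stress genes tied to cell death. In red cell precursors the kinase HRI, encoded by Eif2ak1, senses low heme and acts through this route. Serine made by PHGDH, PSAT1 and PSPH feeds the mitochondrial enzymes SHMT2 and MTHFD2, which pass its carbon to folate for purine and thymidylate synthesis. Because much of ATF4 control is translational, mRNA counts of Atf4 do not measure its protein.

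ATF4 binds DNA with C/EBP family partners at a composite element. Its core was searched here as the letters TGATGNAA on both strands, in windows from 250 bases before to 50 bases after annotated transcription starts (RefSeq, GRCm38.p6). Of 32851 promoter windows genome-wide, 3.97% held the element. The 10 genes had 11 windows, and it was found in 3 of these (27.3%), those of Asns, Chac1 and Trib3. Those 3 windows are printed because they hold the element, with the match in capitals, read 5′ to 3′ on the strand of the gene.
Asns: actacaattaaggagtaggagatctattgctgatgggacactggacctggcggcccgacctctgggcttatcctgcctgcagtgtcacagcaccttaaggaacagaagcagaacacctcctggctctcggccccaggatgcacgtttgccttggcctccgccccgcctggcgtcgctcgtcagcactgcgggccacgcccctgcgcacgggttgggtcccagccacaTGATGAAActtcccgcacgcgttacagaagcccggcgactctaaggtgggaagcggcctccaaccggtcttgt
Chac1: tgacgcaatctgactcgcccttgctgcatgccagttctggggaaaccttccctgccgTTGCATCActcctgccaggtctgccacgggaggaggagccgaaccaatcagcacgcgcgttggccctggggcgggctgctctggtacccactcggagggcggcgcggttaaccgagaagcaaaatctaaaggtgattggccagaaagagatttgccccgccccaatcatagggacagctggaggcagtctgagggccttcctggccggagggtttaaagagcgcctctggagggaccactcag
Trib3: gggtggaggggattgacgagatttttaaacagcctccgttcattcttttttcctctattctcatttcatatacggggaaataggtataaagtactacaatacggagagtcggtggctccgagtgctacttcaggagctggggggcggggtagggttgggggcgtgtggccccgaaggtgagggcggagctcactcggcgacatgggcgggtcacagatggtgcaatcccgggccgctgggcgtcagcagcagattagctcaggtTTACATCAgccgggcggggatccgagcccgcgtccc
In Asns (chr6:7693160-7693459, minus strand) the match began 23 bases before the start. The Chac1 match (chr2:119350992-119351291, plus strand) began 193 bases before the start and read on the opposite strand. The Trib3 match (chr2:152344011-152344310, minus strand) also read on the opposite strand and began at base 15 of the transcribed part. Atf4, Ddit3, Phgdh, Psat1, Psph, Shmt2 and Mthfd2 had no match to these letters in their windows. The Mthfd2 window (chr6:83317555-83317854, minus strand) lay inside its locus, which runs to 83326011, so a start at that end was not searched.

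The counts summed to between 8541477 and 9945330 in AEL libraries and between 8171676 and 9385507 in NC libraries. Levels are CPM, counts scaled to a common library size, with TMM factors that correct for differences in RNA composition. Fold changes are AEL over NC, tested with edgeR's quasi-likelihood test at a Benjamini-Hochberg adjusted p under 0.05 over 12427 genes. Of these genes 2965 were called higher and 3599 lower in AEL; leaving out NC replicate 1, 2 or 3 gave 1672, 1742 and 1776 higher and 1812, 1780 and 1812 lower. Erg was at 677 ± 117 in AEL against 6.82 ± 2.17 CPM in NC (mean ± SD, n = 3 each). Counts per gene do not tell introduced from native ERG. Trp53 stood at 1080 ± 98.2 in AEL against 171 ± 8.10 CPM in NC, and counts per gene do not show which exons were read, so they check no deletion. Of 11 erythroid markers 8 fell (72.7%, where 29.0% of all genes tested were called lower). The 11 summed to 4456 to 10516 in AEL against 39634 to 52258 CPM in NC. Gata1, the erythroid master factor, was at 276 to 377 in AEL against 388 to 443 CPM in NC, a difference that was not called. All 10 macrophage markers fell (100%), at 2.48 to 27.1 CPM in sum in AEL and 2702 to 3164 CPM in NC. Spic and Timd4 were at 0 in AEL. All 10 neutrophil markers fell too (100%), at 17.3 to 1030 in AEL against 7455 to 8682 CPM in NC. Without any single NC library, 5 macrophage and 6 neutrophil markers were called; the other 5 macrophage markers reached 1 CPM in NC only and then failed the filter, while the neutrophil markers were still tested. B cell markers summed to 1.69 to 2.38 in AEL against 209 to 249 CPM in NC. In bulk samples, fewer cells of a type and less RNA per cell cannot be told apart, and the part of these other cells in the results below was not tested unless stated.

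Among the 10 genes, 4 were called higher and 0 lower in AEL, where 23.9% of all genes tested were called higher and 29.0% lower, 52.8% in all. The AEL libraries lay wholly above the NC libraries for 5 of the 10 and wholly below for 1, against 29.9% and 36.1% of all genes, 66% together. Their median log2 fold change was 0.97, beside -0.05 over all genes tested. All 10 passed the filter of 1 CPM in 3 libraries, but Trib3 reached 1 CPM in AEL libraries only and had to be higher there to pass; without it, 3 of 9 were called higher. The numbers called higher were 3 without NC replicate 1, 2 or 3, 3 without AEL replicate 3, 6 without AEL replicate 2 and 4 without AEL replicate 1.

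**Figure D1:**
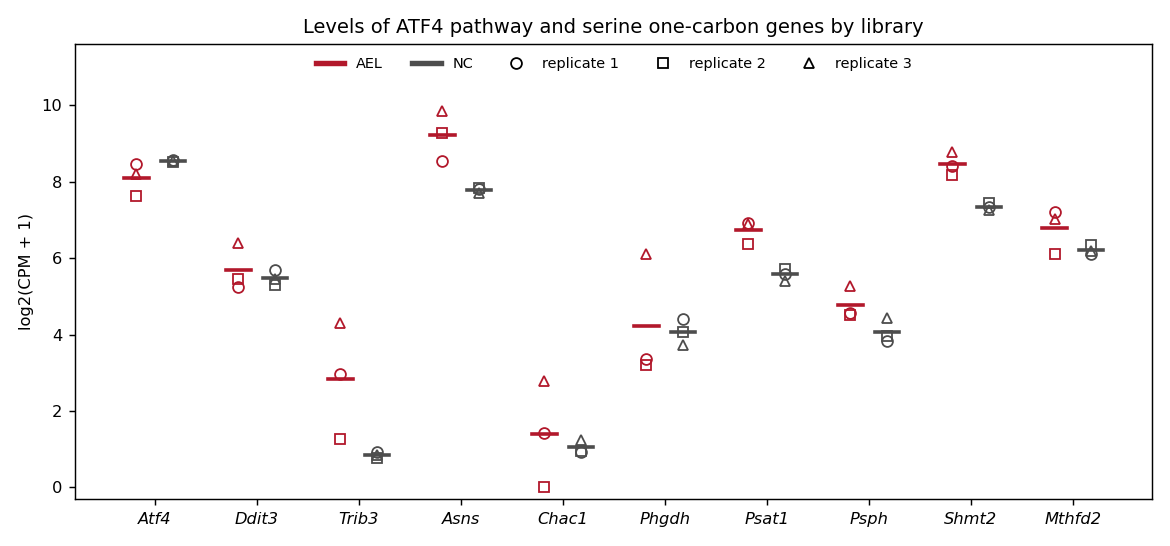
Level of each gene in each library as log2(CPM + 1), AEL in red to the left and NC in gray to the right; symbols mark replicates and bars the group mean (n = 3). Asns, Psat1, Shmt2, Psph and Trib3 have all AEL points above all NC points, and the AEL points of Trib3, Chac1 and Phgdh are spread far wider than their NC points.

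Atf4 (chromosome 15, 80255184 to 80257545, GRCm38.p6) stood at 351, 196 and 295 CPM in AEL replicates 1 to 3 and at 381, 362 and 372 CPM in NC replicates 1 to 3. Every AEL library was below every NC library, replicate 2 farthest, yet the difference did not pass (log2 fold change -0.41, SE 0.21, adjusted p = 0.142). It stayed uncalled under each of 18 alternative settings, with log2 fold changes of -0.50 to -0.14, the smallest change being that without AEL replicate 2. Per kilobase of annotated exon sequence, Atf4 averaged 119 ± 33.4 CPM in AEL, second among the 10 after Asns, and 158 ± 3.92 CPM in NC, the highest of the 10 (mean ± SD, n = 3 each).

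Asns (chromosome 6, 7675165 to 7693209), which makes asparagine from aspartate, stood at 371, 612 and 922 in AEL against 224, 227 and 208 CPM in NC. Replicate 3 was highest, and the lowest AEL library was still above every NC library. The rise was 2.89-fold (log2 fold change 1.53, SE 0.31, adjusted p = 0.00641), and the call held under all 18 alternatives, at 1.22 to 1.91. Per kilobase of exon, Asns averaged 232 ± 101 in AEL against 80.4 ± 3.68 CPM in NC (mean ± SD, n = 3 each), the highest of the 10 genes in AEL and the second in NC. In AEL, Asns, Atf4 and Shmt2 (114 ± 23.9 CPM per kilobase) were neighbors in that order and their SD ranges overlapped; in NC, Atf4, Asns and Shmt2 (52.0 ± 3.41) were apart by more than their SDs. Trib3 and Chac1 were the lowest of the 10 in both groups.

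Trib3 (chromosome 2, 152337425 to 152344060), a pseudokinase that feeds back on ATF4, stood at 6.86, 1.41 and 18.7 in AEL against 0.902, 0.709 and 0.806 CPM in NC. These were 61, 13 and 204 counts in AEL and 7, 6 and 7 counts in NC. The groups did not overlap, though AEL replicate 2 was close to NC and replicate 3 was 13.2 times replicate 2. Trib3 rose (log2 fold change 3.46, SE 0.92, adjusted p = 0.0182), and with no filter on low counts the adjusted p was 0.0183. The call ended without NC replicate 1, 2 or 3 (adjusted p = 0.0749, 0.0805 and 0.0778), and with limma on log2(CPM + 5) (1.07, adjusted p = 0.0634).

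Ddit3 (chromosome 10, 127290793 to 127296291), which encodes CHOP, a factor of stress-induced cell death, stood at 36.7, 42.4 and 82.8 in AEL against 50.2, 38.5 and 42.5 CPM in NC. Replicates 1 and 2 of AEL lay among or below the NC libraries, and replicate 3 lay above all of them. The difference did not pass (log2 fold change 0.31, SE 0.32, adjusted p = 0.449), and it became -0.09 without AEL replicate 3. Exons of Ddit3 share 68 bases with Mars on the opposite strand, and the strandedness of the counting is not given in the sources used here.

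Chac1 (chromosome 2, 119351242 to 119354326), which degrades glutathione, was barely counted: 1.69, 0 and 5.95 CPM in AEL (15, 0 and 65 counts) and 0.902, 0.945 and 1.38 CPM in NC (7, 8 and 12 counts). The 0 in AEL replicate 2 allows up to 0.326 CPM, taking 3 counts as its limit (counting error only). With replicate 2 of AEL below and replicates 1 and 3 above every NC library, the log2 fold change of 1.25 (SE 1.16, adjusted p = 0.398) did not pass. Without AEL replicate 2 it was 1.92 and passed (adjusted p = 0.0334). Chac2, the paralog with constitutive activity, fell by 2.07, with 12.8, 12.7 and 10.5 in AEL against 50.7, 51.3 and 49.5 CPM in NC (adjusted p = 0.000254).

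In the serine pathway, Phgdh, Psat1 and Psph catalyze successive steps, and only the middle step was called. Phgdh (chromosome 3, 98313171 to 98339969), the entry enzyme, stood at 9.23, 8.25 and 67.4 in AEL against 20.4, 15.8 and 12.2 CPM in NC. Replicates 1 and 2 of AEL were below every NC library while replicate 3 was above all of them, 8.17 times replicate 2. The log2 fold change of 0.81 (SE 0.82, adjusted p = 0.43) turned to -0.84 without AEL replicate 3 (adjusted p = 0.06), and without AEL replicate 2 it was 1.36, also uncalled.

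Psat1 (chromosome 19, 15905123 to 15925059), the aminotransferase of the middle step, stood at 121, 81.5 and 118 in AEL against 47.3, 51.7 and 41.3 CPM in NC. The groups were well apart, and the spread within AEL was close to that of a typical gene: an SD of 0.32 on the log2(CPM + 1) scale, against a median of 0.28 over 9569 genes at 10 CPM or more. Psat1 rose 2.28-fold (log2 fold change 1.19, SE 0.19, adjusted p = 0.00252), and the call held under all 18 alternatives, at 1.07 to 1.42. Genes of its chromosome were low as a whole in AEL replicate 3, with a median of -0.88 relative to the NC mean, and near NC in AEL replicates 1 and 2 (-0.01 and -0.07). Psat1 in replicate 3 was 1.32 above the NC mean on the same scale, and well above the median of its chromosome in that library.

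Psph (chromosome 5, 129765558 to 129787443), the phosphatase of the last step, stood at 22.8, 21.6 and 37.5 in AEL against 13.3, 14.5 and 20.6 CPM in NC. The AEL libraries lay above the NC libraries by a narrow margin between AEL replicate 2 and NC replicate 3. At a log2 fold change of 0.76 (SE 0.30, adjusted p = 0.0697) Psph did not pass. It passed with library totals alone (adjusted p = 0.0345), a scaling that moved the median of all genes from -0.05 to 0.14; relative to those medians Psph was at 0.81 with TMM and 0.82 with totals. It also passed without AEL replicate 1 or 2 (adjusted p = 0.0419 and 0.0313), with limma-voom and sample weights (0.0329), and with the replicate number as a block (0.05 when rounded, just under the threshold). Of its annotated exon bases 10.4% overlap Cct6a on the opposite strand, a gene at 515 ± 78.9 in AEL against 358 ± 30.2 CPM in NC (mean ± SD, n = 3 each) that rose as well, so reads of the pair may be mixed and Psph is uncertain.

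Shmt2 (chromosome 10, 127517123 to 127522444), which takes the carbon from serine in mitochondria, stood at 336, 290 and 435 in AEL against 161, 173 and 152 CPM in NC. No AEL library came near the NC range. Shmt2 rose 2.19-fold (log2 fold change 1.13, SE 0.17, adjusted p = 0.002), and the call held under all 18 alternatives, at 1.00 to 1.33. Shmt1, its cytosolic counterpart, rose 4.02-fold at far fewer counts, with 26.6, 22.6 and 21.1 in AEL against 5.42, 6.14 and 5.87 CPM in NC (adjusted p = 0.000751).

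Mthfd2 (chromosome 6, 83305704 to 83326011), the next mitochondrial enzyme and an ATF4 target, stood at 147, 68.4 and 128 in AEL against 67.3, 79.5 and 71.6 CPM in NC. Replicates 1 and 3 of AEL were above every NC library, but replicate 2 fell inside the NC range. The log2 fold change of 0.65 (SE 0.27, adjusted p = 0.0846) did not pass; without AEL replicate 2 it was 0.98 and passed (adjusted p = 0.00084), and with library totals alone the adjusted p was 0.0354. Its relatives were called: Mthfd2l, the isozyme of adult tissues, rose to 12.9 ± 3.57 CPM in AEL against 5.33 ± 1.24 CPM in NC (± SD, 3 libraries each; adjusted p = 0.0166). That call ended without NC replicate 1, 2 or 3 (adjusted p = 0.0663, 0.0551 and 0.0771). Mthfd1l, the mitochondrial synthetase that releases formate, rose 1.64-fold (adjusted p = 0.00186), and Mthfd1, the cytosolic trifunctional enzyme, rose 1.85-fold (adjusted p = 0.00319).

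**Figure D2:**
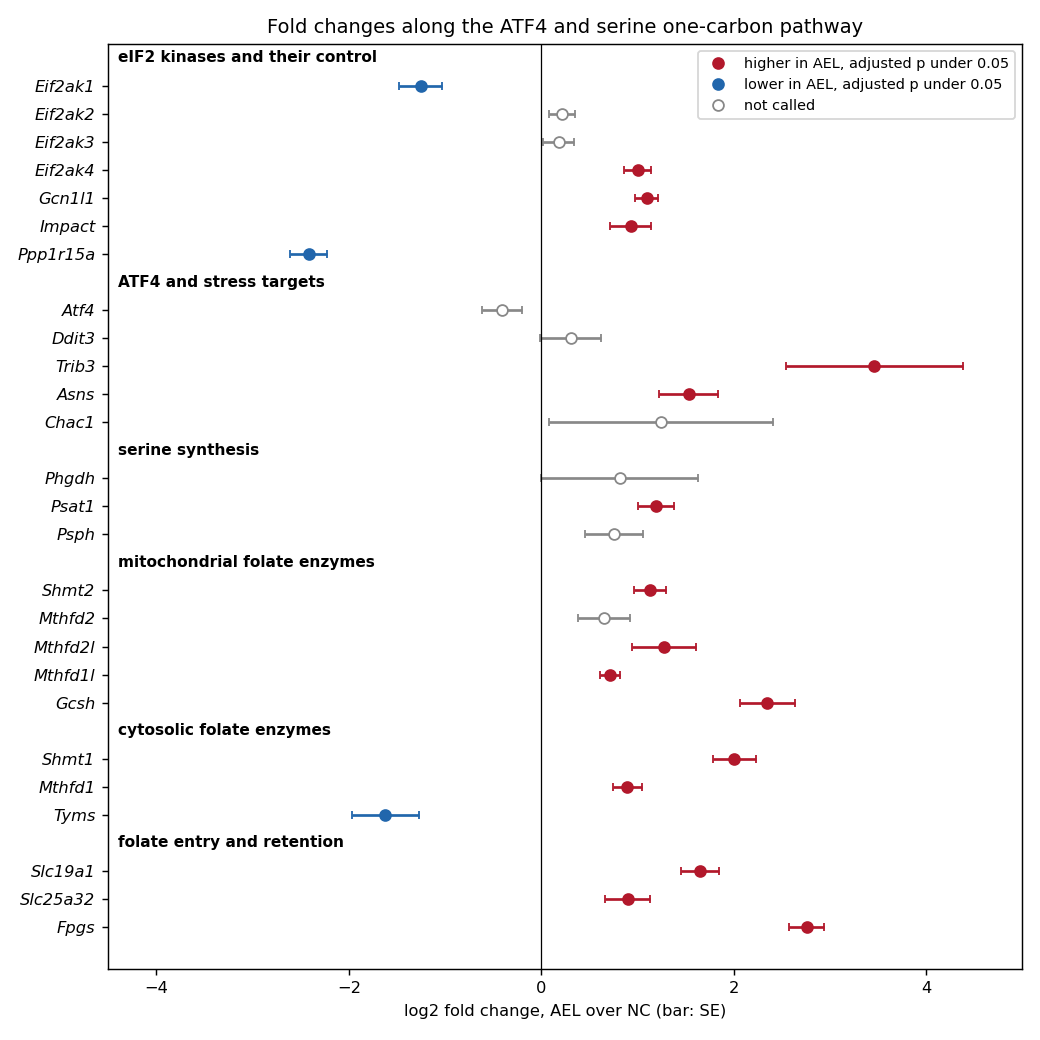
Log2 fold change of AEL over NC with its SE (edgeR) for named genes, grouped by place in the pathway; red and blue filled points passed an adjusted p of 0.05 and open points did not. Atf4 at -0.41 is open and left of 0, while Asns, Psat1, Shmt2 and Shmt1 are filled and right of 0, and Tyms is filled and left of 0.

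Which AEL library stood highest and lowest was tallied after the values were known. AEL replicate 3 was the highest AEL library for 7 of the 10 genes and replicate 1 for the other 3, whereas over 12023 genes with no ties replicate 3 was highest for 31.4% and replicate 1 for 31.0%. Replicate 2 was the lowest for 8 of the 10, against 33.8% of all genes. The list of 30 other tested ATF4 targets, which does not contain the 10, had replicate 3 highest in 23 genes and replicate 2 lowest in 24. In the folate list the same counts were 9 and 9 of 19 genes. Among 17 genes of the other unfolded protein response branches, replicate 1 was highest for 10 and replicate 3 for 5, and replicate 2 was lowest for 11. Summed erythroid markers ran the other way for replicate 3, at 10516, 6041 and 4456 CPM in AEL replicates 1 to 3. Neutrophil markers summed to 17.3, 1030 and 114 CPM in the same order, and the part of either in the order of the AEL libraries was not tested.

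**Figure D3:**
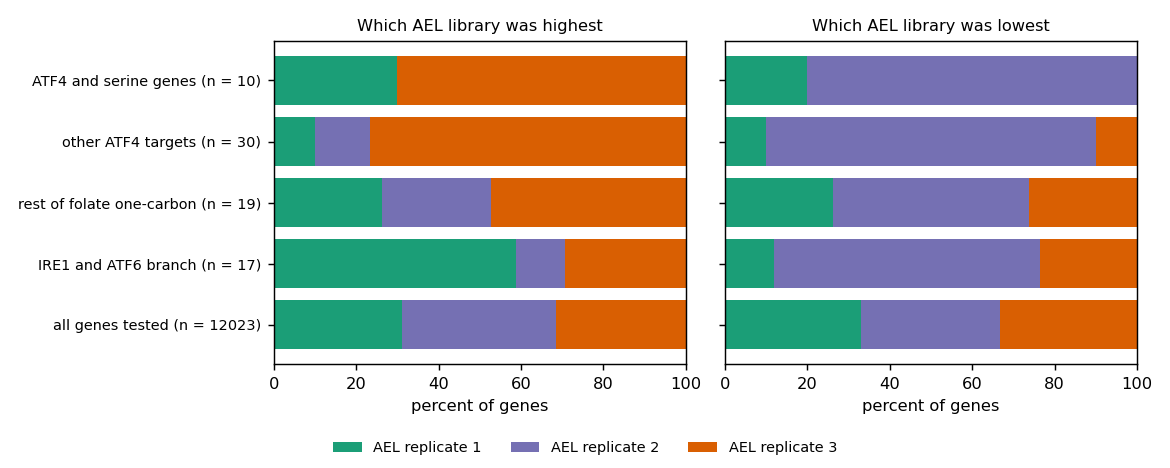
Percent of genes for which each AEL replicate was the highest (left) or lowest (right) of the 3 AEL libraries, by gene list. Replicate 3 takes 70% of the ATF4 and serine genes and 76.7% of the other ATF4 targets on the left, against 31.4% of all genes, and replicate 2 takes 80% of both lists on the right.

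Spread itself was uneven across the 10 genes. On the log2(CPM + 1) scale, Phgdh, Trib3 and Chac1 had SDs within AEL of 1.63, 1.52 and 1.40, larger than in 97.9%, 97.3% and 96.7% of 9569 genes, while their SDs within NC were 0.35, 0.08 and 0.18. Shmt2 and Psat1, at 0.30 and 0.32, were near the median of all genes, which was 0.28 in AEL and 0.12 in NC. Shmt2 and Psat1, with the steadiest AEL levels, were called. Psph, Atf4, Mthfd2 and Ddit3, at 0.42, 0.43, 0.58 and 0.61, were not called, while Asns at 0.66 was. Of the 3 with the widest spread Trib3 alone was called. Spread within groups is part of the test itself.

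**Figure D4:**
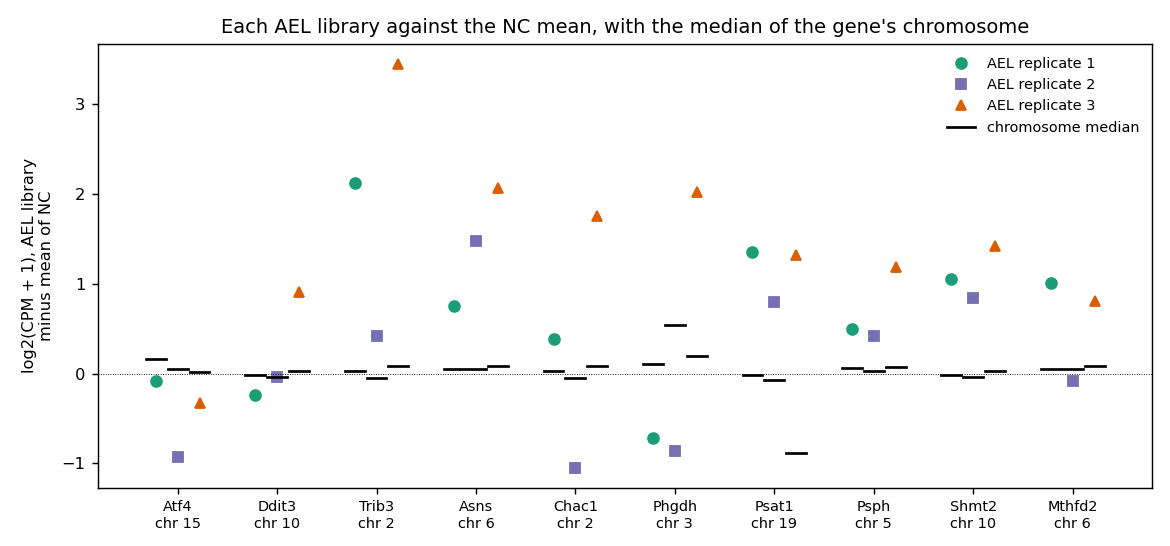
Each AEL library minus the mean of the 3 NC libraries on the log2(CPM + 1) scale, for the 10 genes; black bars give the median of all genes at 10 CPM or more on the same chromosome in that library. Phgdh is at -0.72 and -0.86 in replicates 1 and 2 and at 2.03 in replicate 3, and Psat1 lies above its chromosome's bar in all 3, including replicate 3 where that bar is at -0.88.

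Upstream of ATF4, the eIF2 kinases parted. Eif2ak1, the heme-regulated kinase HRI, stood at 180, 170 and 102 in AEL against 326, 356 and 392 CPM in NC, with no overlap. Its log2 level fell by 1.25 (SE 0.22, adjusted p = 0.00402). In the same libraries 8 of 11 erythroid markers fell (72.7%, against 29.0% of all genes). Eif2ak4, the amino acid sensor GCN2, stood at 47.7, 56.2 and 55.2 in AEL against 27.7, 24.9 and 26.8 CPM in NC and rose 2.00-fold (adjusted p = 0.00176). Both calls held under all 18 alternatives. Eif2ak2, the double-stranded RNA sensor PKR, and Eif2ak3, the endoplasmic reticulum kinase PERK, were not called, at 0.22 (SE 0.13, adjusted p = 0.207) and 0.18 (SE 0.16, adjusted p = 0.365).

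Of 12 genes for eIF2, its exchange factor eIF2B, its phosphatase subunits and the GCN2 regulators, 4 rose (33.3%, against 23.9% of all genes) and 1 fell (8.33%, against 29.0%), with a median of 0.20. Gcn1l1, the activator of GCN2, rose 2.14-fold, to 298 ± 24.5 CPM in AEL against 140 ± 10.4 CPM in NC (± SD, 3 libraries each; adjusted p = 0.000667). Impact, a GCN2 inhibitor, rose 1.90-fold (adjusted p = 0.0104), lost if NC replicate 1 or 2 was dropped (0.062 and 0.0649). Eif2b5, the catalytic subunit of eIF2B, rose by 0.41 (adjusted p = 0.0406), with adjusted p up to 0.169 over the alternatives. Ppp1r15a, the stress-induced phosphatase subunit GADD34 and itself a target of this response, stood at 70.9, 62.1 and 46.7 in AEL against 272, 343 and 343 CPM in NC. It fell by 2.42 (SE 0.19, adjusted p = 0.000265), under every alternative. Of 10 immediate early genes, a class that handling of cells can induce, 9 fell in the same libraries (90%, against 29.0% of all genes). Of those 9, Egr2 reached 1 CPM in NC only. The 10 summed to 98.1 to 170 in AEL against 1309 to 1664 CPM in NC. Their part in the fall of Ppp1r15a was not tested. The count of genes that rose in this list was 1, 1 and 2 without NC replicate 1, 2 and 3, and 2 fell without AEL replicate 1.

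Partner factors of ATF4 and related stress factors were lower or not called: of 9 tested, 0 rose and 5 fell (55.6%, against 29.0% of all genes; median -2.35), of which Atf3 and Nupr1 reached 1 CPM in NC only and had to be lower in AEL to be tested. Cebpa, a myeloid C/EBP factor, was at 0.113, 6.18 and 1.74 in AEL against 32.1, 43.5 and 39.8 CPM in NC, and fell by 3.84 (adjusted p = 0.012, up to 0.0527 without an NC library). Atf3, a stress factor that is also an immediate early gene, was at 0.307 ± 0.0791 in AEL against 11.3 ± 2.13 CPM in NC (± SD, 3 libraries each; adjusted p = 0.000243). Atf3 gave no value without any single NC library. Jdp2, an AP-1 repressor, fell by 3.73 (adjusted p = 0.0198), a call lost without any single NC library (adjusted p up to 0.0738). The number that fell was 2, 1 and 1 without NC replicate 1, 2 and 3. Neutrophil and macrophage markers fell beside these genes, and in AEL replicate 1, where the neutrophil sum was lowest, Cebpa and Jdp2 were at their lowest too; the part of those cells was not tested.

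Other ATF4 targets moved in both directions. Of 36 listed, 30 were tested, 13 rose (43.3%, against 23.9% of all genes) and 6 fell (20%, against 29.0%), with a median of 0.39. Of those called, Cth and Gdf15 reached 1 CPM in 1 group only; this list and those above and below were assembled with earlier results of these data known. Without NC replicate 1, 2 or 3, 8 rose each time and 3, 3 and 2 fell. Slc1a4, a transporter of alanine and serine, stood at 30.4, 16.4 and 58.2 in AEL against 3.09, 3.78 and 2.65 CPM in NC, a rise (log2 fold change 3.46, SE 0.51, adjusted p = 0.00191). Pycr1, a proline synthesis enzyme, stood at 4.95, 4.45 and 21.8 in AEL against 1.29, 1.18 and 1.04 CPM in NC and rose 8.84-fold (adjusted p = 0.0111, up to 0.0587 without an NC library). Xpot, the tRNA exporter, rose 3.00-fold (adjusted p = 0.000703). The TGATGNAA letters stood in the promoter windows of Slc1a4 and Pycr1 and not in that of Xpot. They were also absent from the window of Ppp1r15a, which fell. No other gene of this list was searched, and so none that fell. Whether the letters go with a rise was therefore not tested.

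The largest fall in that list was that of Gdf15, a secreted stress cytokine that p53 also induces, at 0.169 ± 0.163 in AEL against 24.6 ± 2.08 CPM in NC (± SD, 3 libraries each; adjusted p = 0.000321). Gdf15 reached 1 CPM in NC only, had to be lower in AEL to be tested, and gave no value without any single NC library. Slc6a9, the erythroid glycine transporter that supplies heme synthesis, fell by 2.55 (SE 0.40), to 31.1 ± 15.9 CPM in AEL against 182 ± 31.6 CPM in NC (mean ± SD, n = 3 each). Pck2, a mitochondrial enzyme that makes phosphoenolpyruvate, fell by 1.24 (SE 0.24). Among 8 tested amino acid transporters of the list, 2 rose (25%, against 23.9% of all genes) and 3 fell (37.5%, against 29.0%), and 1 rose without any single NC library. Slc7a5, a carrier of large neutral amino acids, rose 2.04-fold (adjusted p = 0.046, and 0.165, 0.126 and 0.136 without NC replicate 1, 2 and 3). Its partner chain Slc3a2 and the glutamine carrier Slc1a5 fell by 0.53 and 0.58 (adjusted p = 0.0444 and 0.0158). Both of those calls ended under some alternatives, at up to 0.17 and 0.0733, library totals alone among them.

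The remaining folate genes rose more often than they fell: of 20 tested, 12 rose (60%, against 23.9% of all genes) and 5 fell (25%, against 29.0%), with a median of 0.69, the same with genes at 0 in a group set to their bound. Of these, 1 that rose and 2 that fell reached 1 CPM in 1 group only. Fpgs, which adds the glutamate tail that keeps folate inside cells, stood at 325, 314 and 457 in AEL against 51.3, 59.8 and 51.1 CPM in NC, a 6.76-fold rise (log2 fold change 2.76, SE 0.18, adjusted p = 0.000162). Gcsh, the carrier protein of glycine cleavage, rose 5.09-fold, to 59.5 ± 20.4 CPM in AEL against 11.7 ± 1.87 CPM in NC (mean ± SD, n = 3 each). The folate carriers Slc19a1, at the cell surface, and Slc25a32, of mitochondria, were named after their values were seen. They rose by 1.65 and 0.90 on the log2 scale (adjusted p = 0.000963 and 0.0167). A further carrier, Slc46a1, the proton-coupled folate transporter, named after its values were seen, fell by 3.55, with 0.675, 0.109 and 0.366 in AEL against 4.25, 4.96 and 4.61 CPM in NC. Among the genes that fell was Tyms, which makes thymidylate and fell by 1.62 (log2; SE 0.35; adjusted p = 0.00811). The number that fell was 2 without any single NC library.

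The folate enzymes Aldh1l1 and Aldh1l2, named after their values were seen, moved oppositely. Aldh1l2, the mitochondrial enzyme, was at 2.03, 1.19 and 9.79 in AEL against 0 in every NC library. Its AEL mean, carried mostly by replicate 3, was at least 11.2-fold higher against 3 counts in 1 NC library, taking the library with the highest such limit. Aldh1l1, the cytosolic enzyme, was at 0 in every AEL library and at 5.67, 4.49 and 5.53 CPM in NC, at least 15.5-fold lower against the same limit in AEL. Aldh1l2 reached 1 CPM in AEL only and Aldh1l1 in NC only, so each could be tested only in the direction it took. Cth, the transsulfuration enzyme and an ATF4 target, likewise named afterward, was at 6.08, 3.36 and 7.59 in AEL against 0.516, 0.118 and 0.345 CPM in NC. Cth reached 1 CPM in AEL only and had to be higher there to be tested.

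Purine synthesis uses formyl folate at a pair of its steps. Of 6 genes of that pathway 4 rose (66.7%, against 23.9% of all genes) and 1 fell (16.7%, against 29.0%). Atic and Gart, the enzymes of those steps, rose 2.38-fold and 2.18-fold (adjusted p = 0.0014 and 0.00186), and Adsl rose 1.82-fold (adjusted p = 0.00807). The Adsl call was lost without NC replicate 1 or 3 (adjusted p = 0.0505 and 0.0509). Paics fell by 0.45 (adjusted p = 0.0138), a call that was lost with library totals alone (0.0763) or without NC replicate 1 (0.0546). Without NC replicate 1 or 3, 2 of the 6 rose. Of 9 methionine and glutathione genes 3 rose (33.3%, Cth among them) and 2 fell (22.2%), close to the 23.9% and 29.0% of all genes. Mat2a, which makes S-adenosylmethionine, rose 1.61-fold (adjusted p = 0.0043). Ggct rose 2.97-fold (adjusted p = 0.0127, up to 0.0692 without an NC library). Gclc, the rate-limiting enzyme of glutathione synthesis, fell by 1.18 (SE 0.28).

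Genes of the other branches of the unfolded protein response rose about as often as genes at large and fell less often. Of 17 genes 4 rose (23.5%) and 3 fell (17.6%), where 23.9% and 29.0% of all genes did. Their median was -0.12. Ern1, the sensor IRE1, rose 3.08-fold, to 33.2 ± 11.4 CPM in AEL against 10.8 ± 2.31 CPM in NC (± SD, 3 libraries each; adjusted p = 0.00486). Sel1l, a degradation scaffold, rose 1.73-fold (adjusted p = 0.00414), and Hyou1, a chaperone, rose 1.33-fold (adjusted p = 0.0398, up to 0.19 over the alternatives). Manf, a secreted stress protein, fell by 1.41 (SE 0.18), Dnajb9, a target of IRE1, fell by 1.29 (SE 0.22), and Edem1, a degradation factor, fell by 0.55 (adjusted p = 0.0255, up to 0.104). The number that rose was 2 without any single NC library and 8 without AEL replicate 2, and 5 fell without AEL replicate 1. Of 8 mitochondrial stress genes 2 rose (25%, against 23.9% of all genes tested) and 0 fell (against 29.0%). The 2 were the chaperones Hspd1 (1.94-fold, adjusted p = 0.00367) and Hspa9 (2.24-fold, adjusted p = 0.0111). The Hspa9 call ended without NC replicate 1 or 3, leaving 1 riser each time (adjusted p up to 0.0623).

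Profiles most like that of Atf4 over the 6 libraries, by Pearson's r of log2(CPM + 1) among 9062 genes, belonged to Mis18a, Tmem170 and Ssx2ip, at 0.992, 0.991 and 0.991. The mean profile of the 5 serine and folate enzymes was most like those of Tbl3, Iqce and Ccdc137, at 0.999, 0.997 and 0.997. With 6 points in 2 groups such values are a description. Iqce stood at 16.3, 10.6 and 32.6 in AEL against 9.41, 9.09 and 8.87 CPM in NC.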

How the data were processed

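Sorted cells gave poly-A RNA libraries, per the labels' protocols. The authors deposited 1 table of whole-number counts per gene symbol, not CPM as its name says; every library has its own total, and the notes name mm10 and edgeR 3.32.1, per the submitters' processing notes, with no role. No source used here names the aligner, the counter or strandedness. The 10 genes and all lists were chosen with earlier results of these data known.

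Counts were tested with edgeR 4.0.16 (R 4.3.3; quasi-likelihood, TMM, group as the only term, 1 CPM in at least 3 libraries); the SE is the absolute log2 fold change over the square root of F. Alternatives used limma 3.58.1 (pseudocounts of 1 and 5 CPM, or voom with sample weights), DESeq2 1.42.0, other scalings, filters of 0 or 5 CPM, a robust fit, a replicate block and each library left out. Counts simulated with the same dispersion in both groups were run through the fit. AEL and NC differed in spread, so that run did not check the fit for such data. Named genes were the 10, the kinases, paralogs, and up to 3 called genes per list and direction at 10 CPM or more, by fold. Symbols matched RefSeq GRCm38.p6 for 12254 rows directly, 475 by synonym and 278 not at all. Exon lengths and overlaps came from GENCODE. No pair of libraries agreed within counting noise. Some genes of the folate list are counted but not reported by name here.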

Additional observations from a re-analysis of the deposited data

How the results depend on the processing

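Of the 10 genes, Asns, Psat1 and Shmt2 kept their calls under all 18 alternatives, and Atf4 stayed uncalled under all 18. The number called higher among the 10 ranged from 3 to 6, and 0 were called lower under any of them. Signs turned in 3 cases: Ddit3 (-0.091) and Phgdh (-0.84) without AEL replicate 3, and Chac1 (-0.042) with limma-voom and sample weights. Leaving out 1 library gave up to 0.62 for Ddit3 and 1.36 for Phgdh. Chac1 gave no value at 5 CPM or without AEL replicate 1, AEL replicate 3 or NC replicate 3, and Trib3 gave none at 5 CPM or without any single AEL library, since each then failed the filter. Over all genes, leaving out 1 library gave 1672 to 3253 called higher and 1780 to 3834 called lower; the low ends came without an NC library, where 11449 to 11460 genes were tested. Library totals alone made 55.2% of calls higher, against 45.2% with TMM. The labels number the replicates 1 to 3 in both groups, but same-numbered libraries did not deviate together (r = 0.062, -0.033 and -0.056). No pairing by number was seen, though this check cannot exclude one. With the replicate block, 5 of the 10 genes were called higher, and 2241 genes were called higher and 3238 lower. The AEL libraries had a coefficient of biological variation of 44.2%, against 9.15% in NC, which limits what 3 libraries can show for genes as variable as Phgdh, Trib3 and Chac1.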
